A study of Mus musculus with 4 samples.

Results

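The effect of doxycycline (dox) was compared between Sca1+ and Sca1- cells of Comma D beta, a mammary epithelial line of the mouse. For each gene, the dox effect in Sca1- cells was subtracted from the dox effect in Sca1+ cells on the log2 scale, and this value is called the difference of dox effects. It was computed for the 7512 genes, of 18162 named genes on the array, whose brightest probe set reached a linear level of 100 on at least 1 of the 4 arrays. The brightest probe set is that of highest mean log2 level, and each gene is represented by it.

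The groups were untreated Sca1+ cells, untreated Sca1- cells, Sca1+ cells given dox and Sca1- cells given dox, with 1 array each. All cells were first kept overnight in DMEM F12 with 2% serum, 5 ug/ml insulin and 10 ng/ml EGF. Dox was then given at 100 ng/ml for 1 day to the treated groups, and 200k cells of each fraction were sorted by surface Sca1. The labels do not say what dox switches in this line; the title of the series names Bcl11b, and no labelled group separates dox itself from what it switches. Nor do they say whether the fractions of a treatment came from the same dish or whether the line is a clone. The Sca1 gene itself, without a probe set under its name, was not analysed here.

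With 1 array per group, no value below has a replicate error, and no test of a difference was possible. Genes are therefore described by a rule of size, a difference of dox effects of 2-fold or more (1 or more on the log2 scale), and the verbs rose and fell are kept for dox effects past the same size. The deposited levels have a floor at a linear level of 10 (3.32 on the log2 scale), so a value at the floor stands for any lower level. Between 44.8% and 48.0% of all probe sets lay at the floor on each array. The difference of dox effects lay between -0.06 and 0.29 for the 9 hybridization control probe sets, and the 3' minus 5' signal of the actin and Gapdh controls gave 0.04 and -0.07. All 10 mammary epithelial markers looked up were measured, among them Krt14, Krt5, Epcam and Cdh1. Of 11 leukocyte markers, only Cd14, which luminal mammary cells also express, reached a level of 100, and the list's summed linear level was 312 and 1390 in untreated Sca1+ and Sca1- cells and 232 and 296 with dox. Of 10 fibroblast markers, only the proteoglycan Dcn reached it, and the list summed to 109 and 125 without dox and to 788 and 454 with dox. None of 8 T-cell, 8 endothelial and 5 adipocyte markers reached it. The part of such cells in the results was not tested.

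Sca1 is a glycolipid-anchored surface protein of the Ly6 family. In Comma D beta cultures it has been used to sort a fraction enriched for progenitor activity, and in the mammary gland it is found on subsets of luminal and basal cells. Bcl11b is a DNA-binding regulator needed by developing T cells, skin and neurons, and it recruits chromatin-modifying complexes. A dividing cell makes its DNA replication proteins first, under E2F factors, and its mitotic kinases, cyclins, kinetochore proteins and kinesins later. Transcription of the later group runs through promoter elements called CHR and CCAAT, bound by the MuvB-containing complexes and by NF-Y, and it ceases in resting cells.

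Most genes had dox effects within 2-fold of each other in the fractions. The difference of dox effects had a median of -0.03 and an SD of 0.46 across the 7512 genes, and 7141 of them (95.1%) stayed under 2-fold, which leaves 371 (4.94%). It was positive by 2-fold or more for 161 genes (2.14%), whose level after dox was higher in Sca1+ cells than the response of Sca1- cells would give. It was negative by 2-fold or more for 210 genes (2.80%). When each array was instead centred on the median of all its probe sets, the median difference shifted by -0.23, and 20.0% of the genes past 2-fold were positive in place of 43.4%. The split by direction therefore depends on the scaling. No gene rose 2-fold in 1 fraction and fell 2-fold in the other.

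Dox effects of 2-fold or more were seen in Sca1+ cells upward for 579 genes (7.71%) and downward for 1041 (13.9%), and in Sca1- cells for 530 (7.06%) and 892 (11.9%). The difference between the fractions was mostly one of degree. Of the 210 negative genes, 132 fell with dox in both fractions, 42 fell in Sca1+ cells alone, 16 rose in Sca1- cells alone, and 10 rose in both. Of the 161 positive genes, 57 fell in Sca1- cells alone, 49 fell in both, 29 rose in Sca1+ cells alone and 18 rose in both. The lowest array was under a level of 100 for 77.6% of the positive and 81.9% of the negative genes, against 27.1% of all 7512. Where a gene had another probe set that reached 100, that probe set gave the same sign for 46 of 47 positive and 44 of 45 negative genes, and passed 2-fold for 31 and 32 of them. Among genes under 2-fold the sign was shared by 1813 of 2538. Probe sets of a gene share the arrays, so they check the probes and not the samples.

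The difference of dox effects is also the change that dox made to the Sca1+ minus Sca1- difference. A gene past 2-fold was called diverging where that Sca1 difference was larger with dox than without it by 1 or more on the log2 scale, and converging where it was smaller by as much. By this rule 161 genes (2.14%) diverged, 100 (1.33%) converged, and 110 (1.46%) did neither, as when Sca1+ cells passed from somewhat above to somewhat below Sca1- cells. Diverging genes comprised 93 positive ones (1.24%) and 68 negative ones (0.905%), and converging genes 52 positive ones (0.692%) and 48 negative ones (0.639%). Of the genes in neither class, 94 were negative. The number of genes with a 2-fold Sca1 difference was 399 (5.31%) without dox and 431 (5.74%) with dox.

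**Figure D1:**
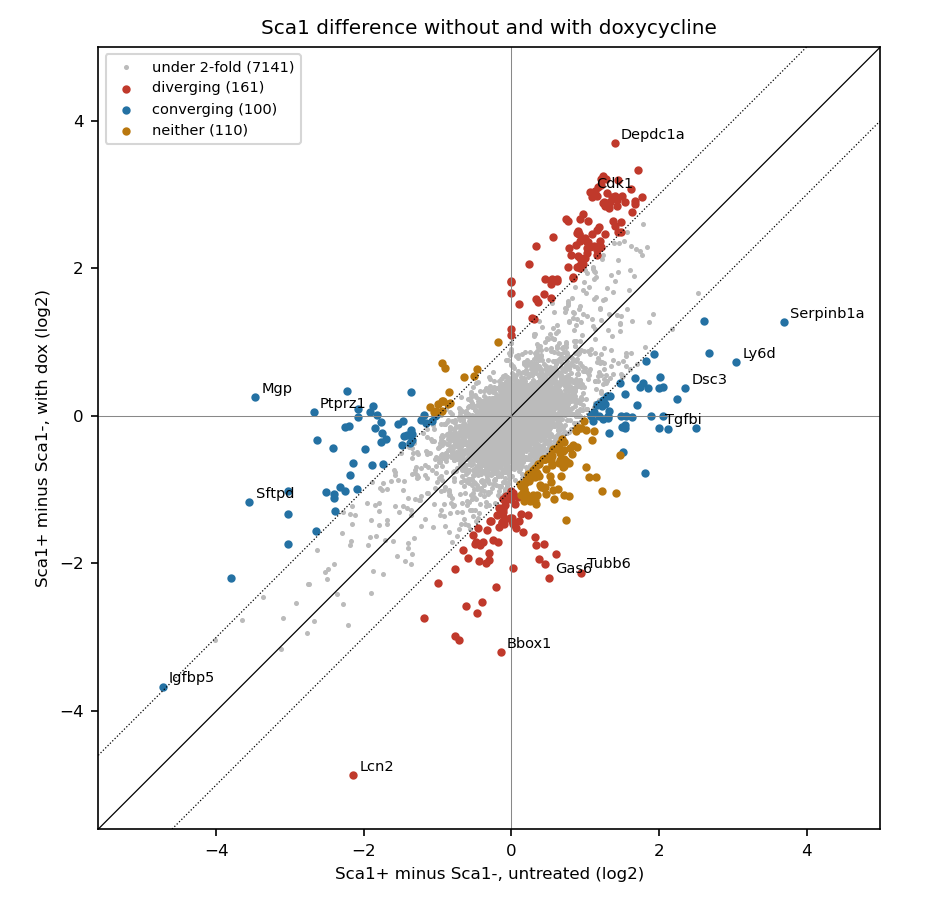
Sca1+ minus Sca1- difference with dox (vertical axis, log2) against the same difference without dox (horizontal axis, log2), 1 point per gene for 7512 genes. The solid diagonal marks equal dox effects and the dotted lines a 2-fold difference between them; 161 diverging genes, 100 converging genes and 110 in neither class lie outside, and Mgp lies highest above the diagonal.

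Bcl11b itself gave unlike values by probe set. Its brightest probe set read 6.87 in untreated Sca1+ cells, 6.29 in untreated Sca1- cells, 12.11 in dox Sca1+ cells and 11.99 in dox Sca1- cells. It rose in both fractions, and the difference of dox effects was -0.46. The next brightest read 7.52 and 6.21 on the untreated arrays, the floor in dox Sca1+ cells and 5.38 in dox Sca1- cells, which gives a difference of at or below -3.36. The remaining 2 probe sets were under a level of 100 on all arrays. The first gave at or below -1.54, and the other, at the floor on 3 arrays, gave no bound. The files do not say which part of the transcript each probe set reads, so the signal of an added gene copy and of the cells' own gene cannot be told apart.

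The functions that diverged with higher levels in Sca1+ cells were those of mitosis. Of 93 measured genes on the lists of mitotic kinases and cyclins, of kinetochore proteins and of kinesins and spindle proteins, 49 (52.7%) were positive and diverging, against 1.24% of all genes. Only Cenpl, a centromere protein gene, was negative on these lists, at -1.07. The median difference of dox effects over the 93 was 1.04 against -0.03 over all genes, and 80 of 93 lay above 0 against 46.1% of all genes. In bulk samples a smaller share of dividing cells and less of these messages per dividing cell cannot be told apart.

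The 93 mitotic genes were already higher in Sca1+ cells before dox, and dox widened that gap. Their median level was 8.41 in untreated Sca1+ cells, 7.31 in untreated Sca1- cells, 7.60 in dox Sca1+ cells and 5.49 in dox Sca1- cells. Their median dox effect was -0.92 in Sca1+ cells and -1.92 in Sca1- cells. The median Sca1 difference went from 1.19 without dox to 2.29 with it. In dox Sca1- cells 53 of the 93 genes were under a level of 50, against 3 in dox Sca1+ cells, so many of these values lie near the floor. With all levels raised to a floor of 50, 23 were positive, 7 were negative and the median was 0.38, and among the 24 genes at 100 or more on all arrays 11 were positive, none negative and the median was 0.78.

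The promoters of the 4 diverging genes with the largest positive difference of dox effects are shown because these genes moved together and belong to the mitotic group. Each run is the 150 bases before the RefSeq start on the GRCm38.p6 build, 5′ to 3′ on the gene's strand, with motif letters of either strand in capitals. The motifs searched were CHR, spelled TTTGAA or TTCAAA on the other strand, the CCAAT box under its own letters or ATTGG on the other strand, and E2F, spelled TTTCCCGC, TTTGGCGC or TTTCGCGC and their reverse complements. Depdc1a lies at chr3:159495283-159495432 on the plus strand, Bub1 at chr2:127831860-127832009 on the minus strand, Bub1b at chr2:118598061-118598210 on the plus strand and Cdk1 at chr10:69352913-69353062 on the minus strand.
Depdc1a: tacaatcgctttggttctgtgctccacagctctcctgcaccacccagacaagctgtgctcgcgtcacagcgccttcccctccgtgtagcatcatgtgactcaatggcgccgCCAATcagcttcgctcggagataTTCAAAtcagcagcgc
Bub1: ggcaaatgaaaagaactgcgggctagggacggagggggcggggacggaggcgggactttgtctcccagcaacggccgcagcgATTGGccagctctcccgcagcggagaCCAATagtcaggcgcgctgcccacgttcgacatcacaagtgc
Bub1b: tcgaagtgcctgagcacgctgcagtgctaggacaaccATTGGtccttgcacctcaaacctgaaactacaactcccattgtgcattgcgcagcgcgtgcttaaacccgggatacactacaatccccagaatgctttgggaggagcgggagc
Cdk1: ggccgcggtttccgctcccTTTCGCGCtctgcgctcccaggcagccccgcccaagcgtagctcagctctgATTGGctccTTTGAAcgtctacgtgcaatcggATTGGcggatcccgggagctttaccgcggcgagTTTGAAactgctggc

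CHR letters stood in the Depdc1a window 1 time and in the Cdk1 window 2 times, and the Bub1 and Bub1b windows held CCAAT letters, 2 times and 1 time, without CHR letters. Over the 250 bases before each start, CHR letters were in 25 of 83 windows (30.1%) of the mitotic genes. They were in 5252 of all 32851 windows of the RefSeq table (15.99%) and 10.5% of the windows of genes that passed the level filter. The mitotic lists were unlike in this. CHR letters were in 14 of 30 windows of kinesin and spindle genes and 5 of 16 of mitotic kinases, cyclins and exit regulators. Kinetochore and centromere genes had them in 6 of 37 windows (16.2%), near the share of all windows, although their median difference of dox effects was 1.04. CCAAT letters were in 67.5% of mitotic windows and 58.1% of DNA replication windows, against 33.8% of all. Both motifs were in 26.5% of mitotic windows against 5.55% of all. Among genes that passed the level filter, CCAAT letters were in 34.7% of windows and both motifs in 3.90%. No motif contains another, and 76 of the 93 genes had a window. These are counts of letters and show no binding.

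Among single mitotic genes, Depdc1a had the largest difference. DEPDC1A is a mitotic protein, and its level was 8.59 in untreated Sca1+ cells, 7.19 in untreated Sca1- cells, 8.14 in dox Sca1+ cells and 4.45 in dox Sca1- cells. It fell in Sca1- cells only, and the difference of dox effects was 2.29. Bub1, a kinase of the spindle checkpoint, went from 9.49 to 8.42 in Sca1+ cells and from 8.28 to 5.20 in Sca1- cells, a difference of 2.00. Its partner in the checkpoint, Bub1b, went from 8.06 to 7.26 and from 6.81 to 4.01, a difference of 2.00, and its other bright probe set gave 1.49. In each of these genes dox Sca1- cells had the lowest level of the 4 arrays.

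The kinase that drives entry into mitosis, Cdk1, started at 10.33 in Sca1+ cells and 9.27 in Sca1- cells and had dox effects of -1.33 and -3.31, a difference of 1.98. Cyclin A2, Ccna2, a partner of that kinase, differed by 1.88 and its other bright probe set by 1.30. Among kinases, cyclins and mitotic exit regulators, 12 of 24 were positive, including the kinase Pbk at 1.93 and the ubiquitin-conjugating enzyme Ube2c at 1.73. Cyclin B2, Ccnb2, had a dox effect of -0.87 in Sca1+ cells and -2.37 in Sca1- cells, and the activator of mitotic exit Cdc20 one of -0.27 and -1.77. The other bright probe sets of Cdc20 differed by 0.82 and, with dox Sca1- cells at the floor, by at or above 0.39. The transcription factor of this group, Foxm1, did not share the pattern and gave -0.97. Nek2, a centrosome kinase, gave -0.53.

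Kinetochore and centromere genes gave a median of 1.04, with 20 of 37 positive. Birc5, the survivin subunit of the chromosomal passenger complex, differed by 1.94, the Ndc80 complex subunit Spc25 by 1.93, the checkpoint protein Mad2l1 by 1.78 and the kinetochore scaffold Knl1 by 1.74, which turned to -0.45 with a floor of 50. Kinesins and spindle proteins gave a median of 1.13, with 17 of 32 positive, among them the microtubule binder Nusap1 at 1.92, the spindle protein Spag5 at 1.75 (-0.08 with a floor of 50), the microtubule depolymerase Kif2c at 1.62 and topoisomerase Top2a at 1.60. Anln, which encodes anillin of the cleavage furrow, gave 1.61, while a dimmer probe set of it gave -1.19.

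**Figure D2:**
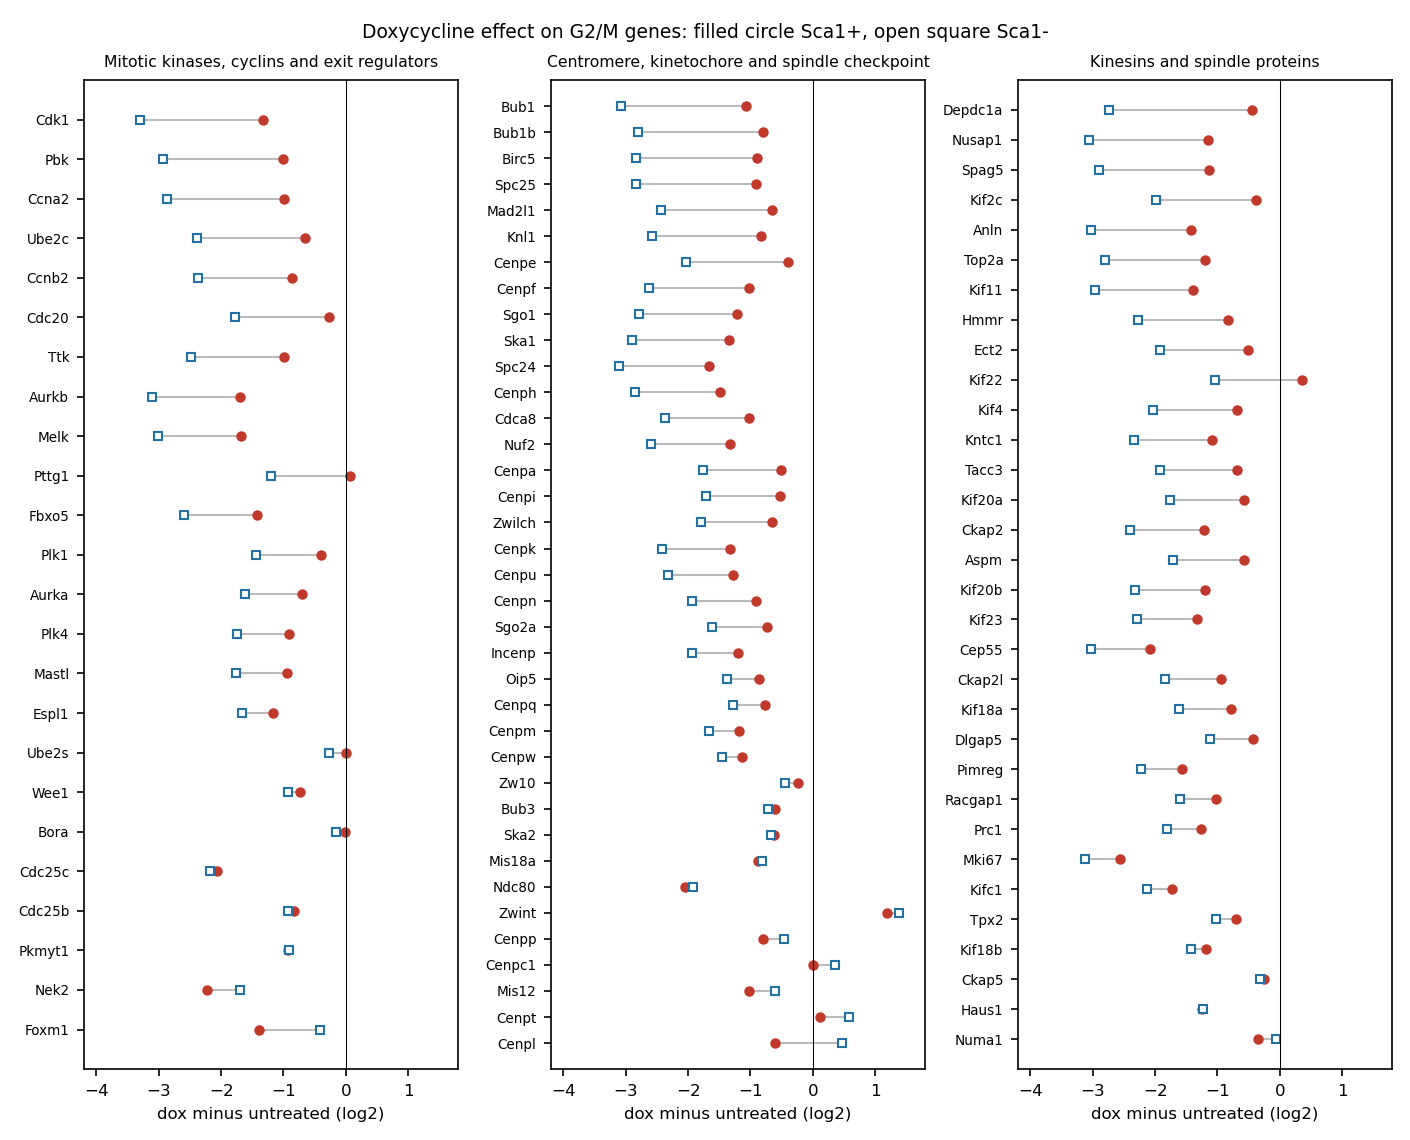
Dox minus untreated difference (horizontal axis, log2) in Sca1+ cells (filled circles) and Sca1- cells (open squares) for each measured mitotic kinase or exit regulator, kinetochore or centromere gene, and kinesin or spindle gene, 1 row per gene, ordered by the difference between the fractions. The open squares lie to the left of the filled circles for 80 of the 93 genes.

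Genes of DNA replication lay on the same side with smaller values. Of 44 measured, 10 were positive and diverging, against 1.24% of all genes, none was negative, and the median difference was 0.49. Dscc1, a loader of the replication clamp, read 7.78 and 7.45 in untreated Sca1+ and Sca1- cells and 6.61 and 4.32 with dox, a difference of 1.97. Mcm10, an initiation factor, differed by 1.86, thymidine kinase Tk1 by 1.38, DNA ligase Lig1 by 1.30, the ribonucleotide reductase subunit Rrm2 by 1.25 and Uhrf1, which copies DNA methylation at the fork, by 1.24. Dscc1 and Mcm10 read 4.32 and 4.12 in dox Sca1- cells, near the floor of 3.32. A higher floor would make their differences smaller. Tk1, Lig1, Uhrf1 and Rrm2 read 5.56, 6.03, 6.24 and 7.92 there. Cyclin E2, Ccne2, which drives entry into S phase, differed by 1.60 and the repressor E2f8 by 1.12. These were the 2 positive genes of 17 on the G1 to S list, against 2.14% of all genes. None of the 17 was negative, and their median was 0.15. The proliferation marker Mki67 fell in both fractions and differed by 0.55. E2F letters stood in 9 of 43 windows of the replication genes (20.9%) against 1.53% of all windows. Among genes that passed the level filter the share was 3.14%.

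Condensin and cohesin subunits gave a median of 0.03, with 3 of 19 positive, against 2.14% of all genes. They were the condensin subunit Ncapg at 1.91, the cohesin protector sororin, Cdca5, at 1.87 and the cohesin acetyltransferase Esco2 at 1.57. Another bright probe set of Cdca5 gave 0.57. The inhibitor list, which holds CDK inhibitors and growth-arrest genes, gave -0.22 with 1 of 25 positive and 2 negative, against 2.14% and 2.80% of all genes. The positive one was Cdkn2c, an inhibitor of CDK4 and CDK6, at 1.21, and Gas1, a growth-arrest membrane protein, was negative at -2.46. The cell-cycle lists together, without the inhibitor list, held 185 measured genes. Of these, 65 (35.1%) were positive and diverging, against 1.24% of all genes, which is 65 of the 93 positive diverging genes. In dox Sca1- cells 78 of the 185 lay under a level of 50, against 7 in dox Sca1+ cells.

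The genes that diverged with lower levels in Sca1+ cells had no such common function on the lists used. Of these 68 genes, 54 fell with dox in both fractions and fell further in Sca1+ cells. Tubb6, a beta-tubulin isotype, had the most negative difference, -3.06. It read 9.98 in untreated Sca1+ cells, 9.05 in untreated Sca1- cells, 4.37 in dox Sca1+ cells and 6.49 in dox Sca1- cells. The fractions thus changed order, with Sca1+ cells above before dox and below with it. Bbox1, the last enzyme of carnitine synthesis, started level at 9.29 and 9.43, and reached 4.36 in dox Sca1+ cells and 7.56 in dox Sca1- cells. Its difference was -3.05, and at or below -2.54 by another probe set, at the floor in dox Sca1+ cells.

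Secreted and acute-phase genes were among them. Lcn2, the siderophore-binding lipocalin of inflamed epithelium, read 9.89 and 12.03 in untreated Sca1+ and Sca1- cells and 5.23 and 10.09 with dox, a difference of -2.72. Cp, the copper carrier ceruloplasmin, read 11.40 and 12.16 without dox and 7.35 and 10.33 with it, a difference of -2.22, and its 6 other bright probe sets gave -0.39 to -1.99. Both fell in both fractions, and both were lower in Sca1+ cells with and without dox, by more with it. Cebpb, a transcription factor of acute-phase and alveolar genes, read 10.96 and 11.42 without dox and 7.03 and 9.70 with it, and its 2 bright probe sets gave -2.21 and -2.14. On the acute-phase and cytokine list as a whole the median was 0.37, with 1 of 14 positive and 2 negative, against 2.14% and 2.80% of all genes. The list thus held genes of both directions.

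Of the 68 genes, 2 rose in both fractions and 3 in Sca1- cells alone. Among the latter was Gas6, a ligand of the Axl receptor, which read 6.84 and 6.34 in untreated Sca1+ and Sca1- cells, and 7.16 and 9.35 with dox. Its difference was -2.70. Its receptor Axl fell in both fractions and differed by -1.03. Further diverging genes with a negative difference were the epidermal transcription factor Bnc1 at -2.47, the sulfate donor enzyme Papss2 at -2.46, the lysyl oxidase relative Loxl3 at -2.33, the collagen chain Col9a3 at -2.17, the sulfatase Sulf2 at -2.12, the lysosomal protease Ctsh at -1.97, the angiogenic factor Vegfa at -1.73 and the lysosomal enzyme Gusb at -1.56. Il17rc, Cyp20a1 and Fads3 were at the floor in dox Sca1+ cells and differed by at or below -2.31, -2.12 and -2.09. Another bright probe set of Fads3, also at the floor in dox Sca1+ cells, gave at or below -0.05, and with a floor of 50 Cyp20a1 turned to 0.20.

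By the rule of the class, converging genes with a positive difference all start lower in untreated Sca1+ cells, so that order is no result. Many of these genes rose in Sca1+ cells to the level of Sca1- cells. Mgp, the matrix Gla protein that inhibits calcification, had the largest difference of all genes. It read 7.16 in untreated Sca1+ cells, 10.64 in untreated Sca1- cells, 10.75 in dox Sca1+ cells and 10.50 in dox Sca1- cells, so that 1 array stood below the other 3. It rose in Sca1+ cells by 3.59 and the difference of dox effects was 3.73. Ptprz1, a receptor tyrosine phosphatase, read 4.54 and 7.23 without dox and 7.07 and 7.02 with it, a difference of 2.73. Gsta4, a glutathione transferase, read 8.18 and 10.09 without dox and 10.19 and 10.13 with it, a difference of 1.97. In these genes only untreated Sca1+ cells were low.

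In other genes of this kind Sca1+ cells rose too. Atp1b1, a subunit of the sodium pump, read 5.63 and 7.89 in untreated Sca1+ and Sca1- cells and 9.26 and 9.41 with dox, a difference of 2.11, and its other probe sets gave 1.29 to 1.97. Rgs2, a brake on G-protein signals, read 4.80 and 7.02 without dox and 8.21 and 7.87 with it, a difference of 2.56, and 1.98 by its second brightest probe set. The polyamine oxidase Smox differed by 2.02. Ptx3, a soluble pattern-recognition protein, differed by 2.17, the ubiquitin ligase Hectd2 by 2.07 and the neutrophil chemokine Cxcl5 by 1.99. Their Sca1 difference with dox lay between -0.44 and 0.34.

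Other converging genes fell in Sca1- cells, which brought the fractions nearer. Plxnd1, a semaphorin receptor, read 4.37 and 7.01 without dox and 4.01 and 4.33 with it, a difference of 2.32. Sftpd, the surfactant-associated lectin, read 4.85 and 8.40 without dox and 5.57 and 6.74 with it, a difference of 2.38, and stayed lower in Sca1+ cells. Igfbp5, an IGF binder of the involuting gland, kept the widest gap of the 3, with 5.40 and 10.12 without dox and 5.20 and 8.86 with it, a difference of 1.06. Krt15, a keratin of basal progenitors, was at the floor in untreated Sca1+ cells and rose to 10.20 and 10.39, which gives a difference of at or above 1.18, but -0.19 with a floor of 50.

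Converging genes with a negative difference start higher in Sca1+ cells, which the rule of the class also fixes. Ly6d, a Ly6-family surface protein like Sca1, read 8.34 in untreated Sca1+ cells, 5.29 in untreated Sca1- cells, 5.32 in dox Sca1+ cells and 4.59 in dox Sca1- cells. It fell in Sca1+ cells only, and the difference was -2.32. Dio2, which activates thyroid hormone, read 7.50 and 5.69 without dox and 4.19 and 4.95 with it, a difference of -2.58. Parm1, a mucin-like membrane protein, read 7.48 and 5.36 without dox and 4.93 and 5.11 with it, a difference of -2.30. Tgfbi, a matrix protein induced by TGF-beta, fell in both fractions from 11.06 and 9.05 to 5.50 and 5.66, a difference of -2.16, and -2.55 by another probe set. In these 4 genes the gap between the fractions was under 1 on the log2 scale with dox.

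Some of this class rose in Sca1- cells. Dsc3, a desmosomal cadherin, read 7.90 and 5.55 without dox and 7.31 and 6.94 with it, a difference of -1.98, having risen in Sca1- cells. Ltbp1, which tethers latent TGF-beta to the matrix, rose in both fractions from 6.90 and 4.22 to 8.86 and 8.01, a difference of -1.83. Serpinb1a, a protease inhibitor, was at the floor in untreated Sca1- cells and read 7.01 in untreated and 7.27 in dox Sca1+ cells, and its difference was at or below -2.43. Galnt18, a glycosyltransferase, instead fell in both fractions, to the floor in dox Sca1+ cells, and gave at or below -2.68. The size of its gap with dox is not known, because of the floor. Tubb3, a beta-tubulin isotype, gave -1.63, but 0.26 with a floor of 50.

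**Figure D3:**
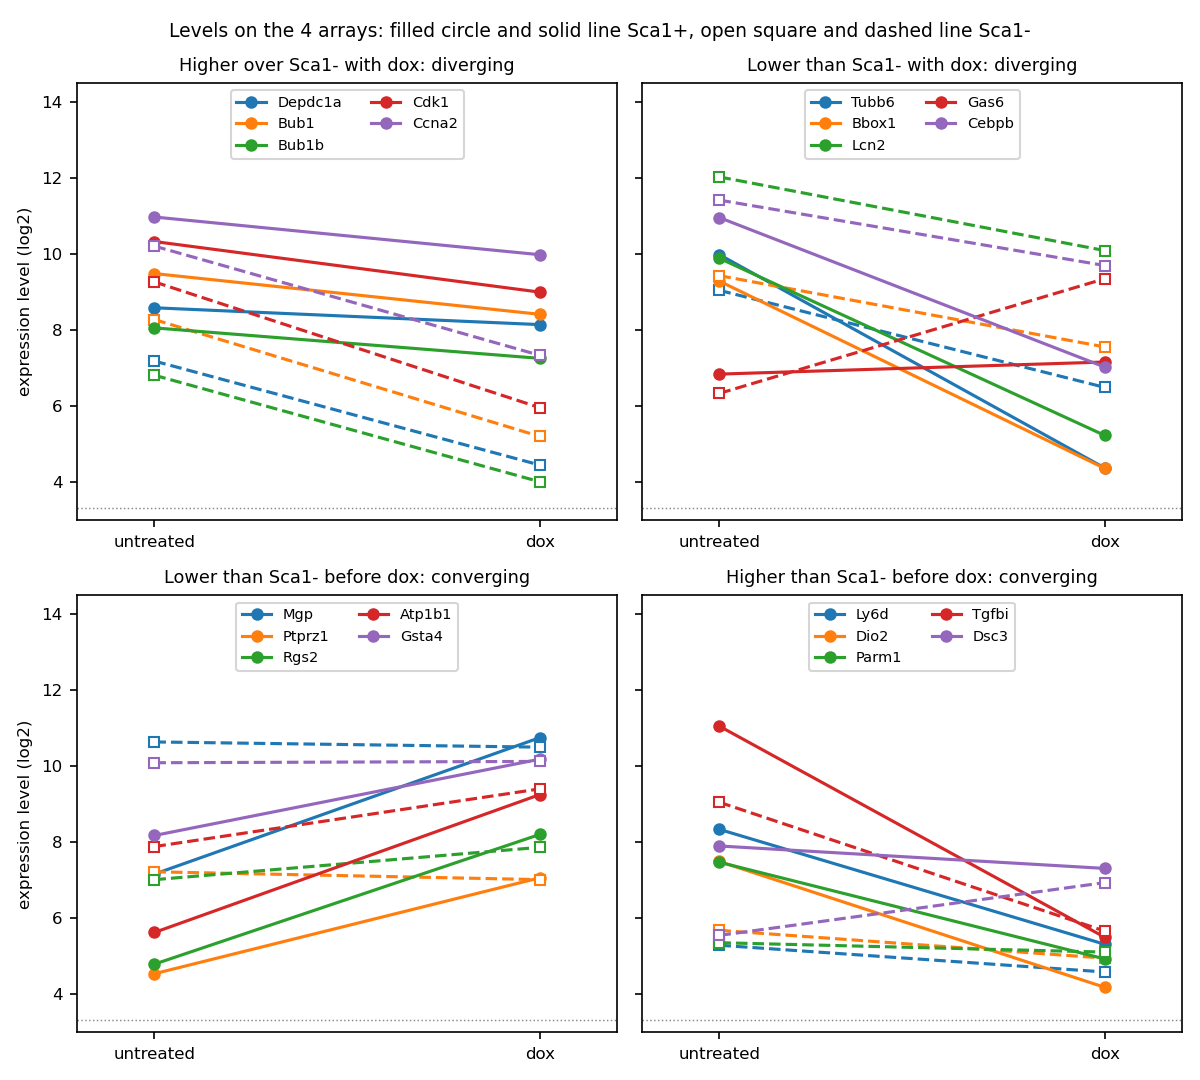
Levels (vertical axis, log2) of 20 genes on the 4 arrays, untreated at the left and dox at the right of each panel, with Sca1+ cells as filled circles and solid lines and Sca1- cells as open squares and dashed lines; the dotted line is the floor at 3.32. The upper panels hold diverging genes, whose lines part with dox, and the lower panels converging genes, such as Mgp and Ly6d, whose lines end nearer each other with dox.

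The order of the fractions turned, with a Sca1 difference of 0.5 or more in each state, for 38 genes, of which 34 had a negative difference. Gas1 read 9.87 and 8.45 in untreated Sca1+ and Sca1- cells and 5.27 and 6.31 with dox, a difference of -2.46, and -1.64 by another probe set. Lgr6, a receptor for R-spondins that marks epithelial progenitors, read 8.96 and 8.23 without dox and 5.57 and 6.97 with it, a difference of -2.14. Bmp7, a BMP ligand, fell to the floor in dox Sca1+ cells and differed by at or below -2.01. Sfrp1, a secreted Wnt inhibitor, differed by -1.98, while its other bright probe sets gave -0.39, -1.38 and at or below -1.84. Of the 4 positive genes, Yars, the tyrosyl-tRNA synthetase, gave 1.65.

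Several lists outside the cell cycle lay below 0 as groups, with few members past 2-fold. Genes of cholesterol synthesis and uptake gave a median of -0.58, with 17 of 19 below 0, against 53.9% of all genes, and 2 negative by 2-fold, against 2.80% of all. Mvd, which makes isopentenyl diphosphate, read 6.10 and 5.21 in untreated Sca1+ and Sca1- cells and 6.33 and 6.75 with dox, a difference of -1.30. Idi1, the isomerase of the next step, differed by -1.08 and -0.81 by its probe sets, the sterol dehydrogenase Nsdhl by -0.95 and squalene synthase Fdft1 by -0.95. The list's median Sca1 difference went from 0.54 without dox to 0.00 with it.

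Targets of the stress factor ATF4 gave a median of -0.65, with 14 of 17 below 0 and 4 negative, against 53.9% and 2.80% of all genes. Apart from Cebpb these were Pck2, the mitochondrial PEP carboxykinase, at -1.13, the stress protein Nupr1 at -1.04 and the pseudokinase Trib3 at -1.01. All 4 fell in Sca1+ cells, and in Sca1- cells all but Nupr1, at -0.87, fell too. Asparagine synthetase, Asns, a standard target of ATF4, gave 0.32, and Atf3 gave -0.09. The list's members were thus not uniform.

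Proteases and their inhibitors gave a median of -0.66, with 13 of 16 below 0 and 5 negative, against 53.9% and 2.80% of all genes. These 5 were inhibitors or a chaperone of the serpin family. Timp2, an inhibitor of metalloproteinases, read 9.26 and 9.25 in untreated Sca1+ and Sca1- cells and 8.10 and 9.53 with dox, a difference of -1.44, and its other probe sets gave -2.00 to -2.24. Timp3 differed by -1.32, the plasminogen activator inhibitor Serpinb2 by -1.64 and the collagen chaperone Serpinh1 by -1.34. A pair of strongly dox-responsive proteases did not share this, namely the collagenase Mmp13 at 0.54 and the plasminogen activator Plat at -0.16.

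**Figure D4:**
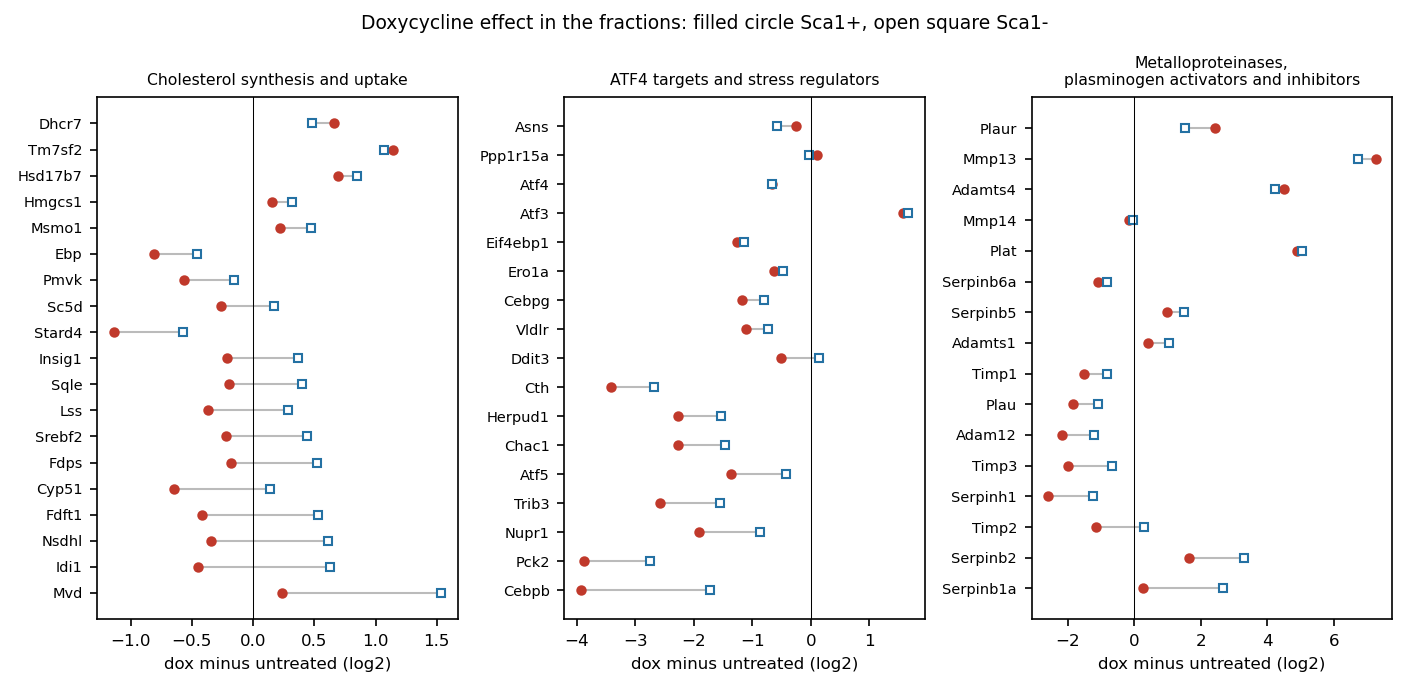
Dox minus untreated difference (horizontal axis, log2) in Sca1+ cells (filled circles) and Sca1- cells (open squares) for genes of cholesterol synthesis and uptake, of the ATF4 list and of the protease and inhibitor list, 1 row per gene. The filled circle lies to the left of the open square for 17 of 19, 14 of 17 and 13 of 16 genes.

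Genes of TGF-beta signalling gave a median of -0.41 with 4 of 19 negative, against 2.80% of all genes, which were Tgfbi, Ltbp1, the activator Thbs1 at -1.27 and the inhibitory Smad7 at -1.08. Other bright probe sets gave 0.13 for Thbs1 and -0.54 for Smad7. The BMP list gave a median of 0.11 but a mean of -0.27, with 3 of 16 negative, against 2.80% of all genes. They were Bmp7, the inhibitory Smad6 at -1.62 and Bmp2 at -1.02, whose untreated levels both lay at the floor, so that its value has no bound. The Wnt list gave -0.35 with 2 of 16 negative, against 2.80% of all genes. These were Sfrp1 and the ligand Wnt4 at -1.10.

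Keratins of basal and stratified epithelium gave a median of -0.68 with 6 of 8 below 0, against 53.9% of all genes. By 2-fold, 2 were negative and 1, Krt15, was positive, against 2.80% and 2.14% of all genes. Krt17, a keratin of stressed epidermis, read 10.68 and 9.99 without dox and 9.57 and 9.89 with it, a difference of -1.01, and Krt16 gave -1.07. Krt5, the basal keratin, fell in both fractions, from 11.46 and 10.77 to 7.47 and 7.63, and its difference of -0.86 stayed under 2-fold. Krt14 gave -0.28. The laminin-332 subunits Lama3 and Lamb3 of the basement membrane gave -1.05 and -1.18.

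Luminal and alveolar regulators gave a median of 0.67, with 9 of 11 above 0, against 46.1% of all genes. By 2-fold, 2 were positive and 1, Cebpb, was negative, against 2.14% and 2.80% of all genes. Kit, a receptor of luminal progenitors, read 5.14 and 7.40 without dox and 6.34 and 7.36 with it, a difference of 1.24. Cd14, a co-receptor for lipopolysaccharide found on luminal progenitors, fell in both fractions from 7.66 and 10.31 to 5.35 and 6.92, a difference of 1.09. Xbp1 gave 0.74 and Aldh1a3, a retinal dehydrogenase of luminal progenitors, 0.70. The list's median Sca1 difference went from -1.54 without dox to -1.02 with it. Tight junction genes gave a median of 0.50 with none of 11 past 2-fold, and that median turned to between -0.08 and -0.11 under 3 of the alternatives tried.

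Among mesenchymal genes, Vim, which encodes vimentin, read 10.60 and 11.54 without dox and 12.47 and 12.27 with it, and its bright probe sets gave 1.14, 1.43 and 1.32. Fibronectin, Fn1, read 9.73 and 10.78 without dox and 11.92 and 11.87 with it, a difference of 1.10, and 0.80 by another probe set. These were the only 2 of 9 genes above 0 on the list of such genes, which gave a median of -0.31. The other 7 lay below 0, against 53.9% of all genes. By 2-fold, Vim and Fn1 were positive and 1 gene, Axl at -1.03, was negative, against 2.14% and 2.80% of all genes.

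The 5 measured Ly6-family genes, relatives of Sca1, gave a median of -0.87, and 2 were negative, against 2.80% of all genes. Lypd3 read 7.84 and 6.79 without dox and 3.55 and 4.38 with it, a difference of -1.88, and Ly6d was the other. Ly6e gave -0.87 and Cd59a -0.86, while the urokinase receptor Plaur gave 0.90. The list's median Sca1 difference went from 1.05 without dox to 0.06 with it. The fractions were sorted by the protein of another member of this family.

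For many functions the fractions responded alike within 2-fold. The median difference was 0.04 for mitochondrial ribosomal proteins, 0.16 for the respiratory chain, 0.19 for ribosome biogenesis, 0.17 for endoplasmic reticulum chaperones, -0.06 for serine and one-carbon enzymes, 0.07 for glycolysis and 0.09 for heat shock proteins, with no gene past 2-fold on any of these 7 lists and a mean of opposite sign, -0.12, for the last. Interferon-stimulated genes had median dox effects of 1.19 in Sca1+ cells and 0.92 in Sca1- cells, and a median difference of 0.17. Of these 24 genes 1 was negative, the nuclease Isg20 at -1.04, against 2.80% of all genes. The cornified envelope gene Sprr1a rose by 6.69 and 6.67, a difference of 0.02, while its relative Sprr1b, at the floor in untreated Sca1- cells, gave at or below 1.56. With 1 array per group, a difference under 2-fold does not show that the fractions responded equally.

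**Figure D5:**
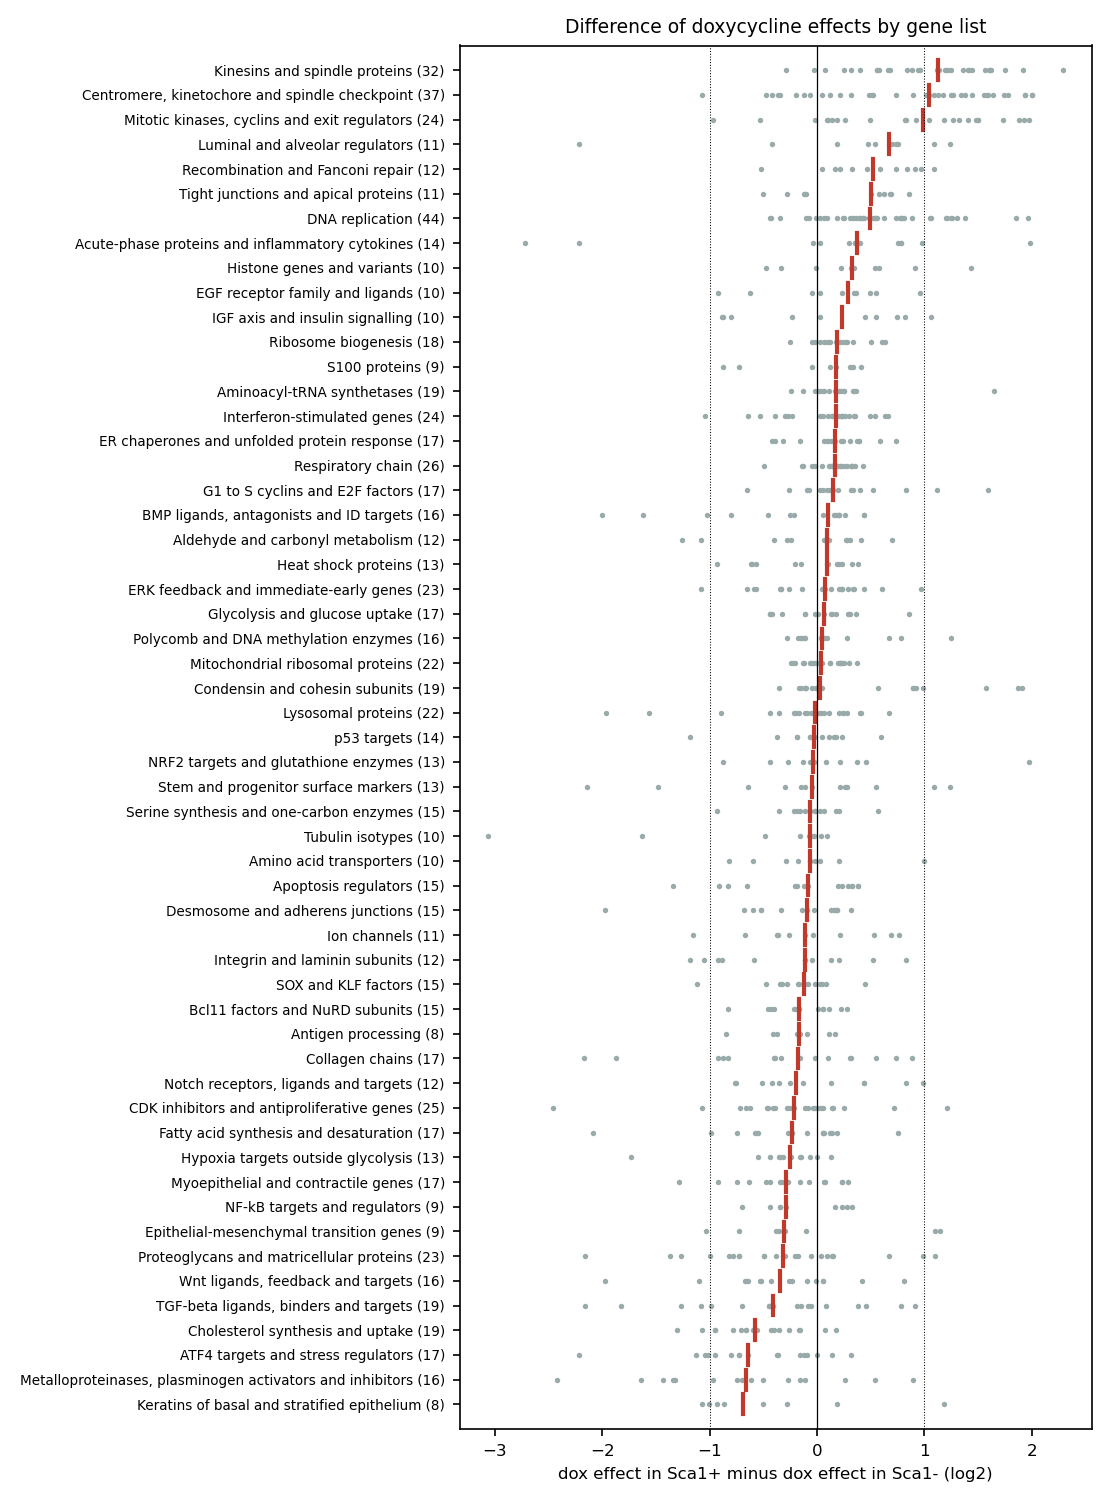
Difference of dox effects (horizontal axis, log2, Sca1+ minus Sca1-) by gene list, 1 grey point per gene and a red bar at the list's median, for lists with at least 8 measured genes (their number in brackets); dotted lines mark 2-fold. Kinesin and spindle genes, at a median of 1.13, and the kinetochore and mitotic kinase lists lie to the right.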

How the data were processed

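RNA from the 4 sorted groups was labelled with biotin from 50 to 500 ng by an Affymetrix 3' IVT protocol, per the labels, which reads the 3' ends of transcripts. The authors deposited 1 log2 expression level per probe set and array, for 45101 probe sets. No label or header states how they summarized probes, scaled arrays or with which software. Each array's lowest deposited log2 value is exactly that of a linear 10. The number of arrays, 1 per group with 0 residual degrees of freedom, limits the precision.

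Symbols came from a platform annotation (34958 probe sets with 1 symbol, 932 with several, 9211 not listed), updated through a RefSeq table of GRCm38.p6. Differences of log2 levels were taken with Python 3.11.15, numpy 2.4.6 and pandas 2.3.3 after a check on simulated data. A floor value on the untreated Sca1+ or dox Sca1- array makes a difference a lower limit, on the other arrays an upper limit, and on arrays of both kinds leaves no bound.

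The members and the 64 gene lists were chosen with earlier results of these data known. Genes named by rule were Bcl11b, the 15 highest and 15 lowest differences above the floor, the 5 highest and 5 lowest bounds, the 8 diverging and 8 converging genes with the largest move, genes with 2-fold dox effects of opposite direction, and up to 6 members of each list with the largest differences. Other names, such as Cenpl, Foxm1, Nek2, Mki67, Asns, Atf3, Mmp13, Plat and Sprr1a, were added after their values were seen, as were the examples in the closing section. Alternatives changed the level filter, floor, probe set summary, scaling and size rule.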

Additional observations from a re-analysis of the deposited data

Results flagged for a closer look

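In 10 genes dox moved the fractions in opposite directions by 0.5 or more on the log2 scale each, and in none by 2-fold each; the difference was not tested, since each group is 1 array. Sftpd read a dox effect of 0.72 in Sca1+ cells and -1.66 in Sca1- cells, a difference of 2.38. Rassf3, which binds Ras-family proteins, gave 0.69 and -1.01, a difference of 1.69. The third positive gene was 4931406C07Rik, at 1.38. Negative differences were seen for Dsc3 at -1.98, the chondroitin sulfotransferase Chst15 at -1.55, the secreted ribonuclease Rnase4 at -1.55, Rai2 at -1.32, the syntaxin binder Stxbp2 at -1.20, the autophagy protein gene Map1lc3a at -1.17 and the microtubule protein gene Map4 at -1.10. Other bright probe sets gave 1.17 for 4931406C07Rik, 1.25 for Rassf3, -1.48 for Map1lc3a and -0.81 for Map4.

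Probe sets without a single gene symbol were left out of the counts of genes. Of the 930 that reached a level of 100, 23 had a difference of dox effects of 2-fold or more in the positive and 21 in the negative direction, between -2.10 and 2.15.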

How the results depend on the processing

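Counts were recomputed under 9 other settings and 2 other size rules, and 41 of 76 recomputed counts stayed within 1.5 times. With a highest array of 50 or more, 242 genes were positive and 165 converged, 97 of them positive; with 200 or more, 134 were negative and 54 converged, 32 positive and 22 negative. With all 4 arrays at 100 or more, 36 were positive and 38 negative, 28 diverged (18 positive, 10 negative) and 19 converged (12 positive, 7 negative). With a floor of 50, 90 diverged (55 positive, 35 negative) and 85 positive genes converged. With the mean of a gene's probe sets, under which 4919 genes passed the level filter, 93 were positive and 123 negative, 95 diverged (52 positive, 43 negative) and 58 converged (29 in each direction). Centred on the median of all probe sets, 97 were positive and 389 negative, and 32 positive and 93 negative genes converged. At 1.5-fold, 359 were positive and 647 negative, and at 4-fold 14 and 28. Of 528 list medians 5 were counted as turned in sign. NF-kB targets turned to 0.029 (50 or more) and recombination genes to -0.14 (floor of 50). Tight junctions turned to -0.10 (200 or more), -0.11 (all 4 arrays at 100 or more) and -0.078 (mean of probe sets). This count leaves out list medians close to 0. With arrays centred by all their probe sets, the median difference over all genes shifted by -0.23. That shift is larger than the medians of the respiratory chain, 0.16, and of ribosome biogenesis, 0.19. Such small medians therefore do not keep their sign under it. Of 2849 values of named genes 8 turned sign from a difference of 2-fold or more, all with a floor of 50, which raises the low levels on which they rest: Krt15 to -0.19, Lst1 to -0.092, Depdc1b to -1.17, Cyp20a1 to 0.20, Knl1 to -0.45, Spag5 to -0.08, Tubb3 to 0.26 and Trpv4 to 0.66. The median over the mitotic genes ran from 0.38 (93 genes, floor of 50) to 1.18 (80 genes, 200 or more). For the other changes the cause was not tested. Levels near the floor limit the mitotic genes in dox Sca1- cells and negative genes, such as Tubb6, in dox Sca1+ cells. They also limit some converging genes, such as Plxnd1 and Parm1, in both fractions with dox. No paired analysis was possible because each group has 1 array.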

Other observations

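The following converging genes with a positive difference were picked out after their values were seen. Foxi1, a transcription factor of acid-secreting cells, read 4.60 and 7.63 in untreated Sca1+ and Sca1- cells, the floor in dox Sca1+ cells and 4.34 in dox Sca1- cells, a difference of at or below 2.02. Atp6v1b1, a proton pump subunit of such cells, read 5.98 and 9.78 without dox and 5.37 and 7.57 with it, a difference of 1.60. Gabrp, a GABA receptor subunit of mammary epithelium, read 6.55 and 9.59 without dox and 4.96 and 6.28 with it, a difference of 1.71. The transcription factor Sox8 read 4.90 and 6.98 without dox, the floor in dox Sca1+ cells and 3.33 in dox Sca1- cells, a difference of at or below 2.07. In all 4 the level was higher in Sca1- cells on both pairs of arrays; for Foxi1 and Sox8 the size of the gap with dox is not known, because of the floor.

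Of the 371 genes past 2-fold, 77 of the 161 positive and 53 of the 210 negative genes stood on any of the 64 lists, against 892 list members among all 7512 genes. The other 157 negative genes were on no list. The lists are partial, so such genes may still share a function that was looked up. Among converging ones with a negative difference, Epha7, an ephrin receptor, read 7.30 and 5.06 without dox and 7.47 and 7.24 with it, a difference of -2.02. Smoc2, a calcium-binding matrix protein, read 7.27 and 5.22 without dox and 4.63 and 4.64 with it, a difference of -2.06. Pcolce2, an enhancer of procollagen processing, fell in both fractions and differed by -2.01.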
